A study of Bubalus bubalis with 8 samples.

Results

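Enzymes that cut the extracellular matrix, and the inhibitors that hold them in check, were followed in buffalo mammary epithelial cells (MECs) across a day of recovery from heat. The 9 genes are the matrix metalloproteinases MMP1, MMP2, MMP3, MMP9 and MMP14, the tissue inhibitors of metalloproteinases TIMP1, TIMP2 and TIMP3, and PLAU, the urokinase-type plasminogen activator. They were chosen by name, and every probe that carried one of these gene names on the array was taken, which gave 27 of 43653 probes. One MMP2 probe (A_73_P098771) lay in a rectangle of spots that was dark on the control array, and was left out. This left 26 of the 40296 probes outside that rectangle.

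MMPs are made as inactive precursors and act outside the cell on collagens, laminins and growth factor stores. TIMPs bind the active site of MMPs and block it. PLAU is a secreted serine protease that turns plasminogen into plasmin, which degrades fibrin and can activate several MMP precursors. In the mammary gland both systems are known for their part in ductal growth and in the tissue remodelling of involution.

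The MECs were a primary culture from the mammary gland of 1 adult female buffalo (Bubalus bubalis), grown to passage 10 and plated on collagen. Unstressed cells (CTR) stayed at 37 °C. Heat-stressed cells were held at 42 °C for 1 h, were returned to 37 °C, and were harvested with trypsin at 7 times, the first after 30 min, then after 2 h, after 4 h and after 8 h, and the last 3 after 12 h, 16 h and 24 h. RNA of each condition was read on 1 one-colour bovine array, so that no difference between conditions could be tested and none has a p-value. All 7 comparisons share the CTR array, and an odd value there moves all of them together. CTR, 8 h, 12 h and 24 h lay on slide 1, and 30 min, 2 h, 4 h and 16 h on slide 2, so that for the slide 2 arrays slide and heat stress cannot be told apart.

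A level here is the log2 signal of a probe above the 75th percentile of its own array, and a change is the level minus that in CTR. Levels were compared only within a probe, since probes bind with different strength. The number after ± is 1 SD, from bright probes printed in several spots, combined over both arrays. It covers the spread within an array only, and for 30 min the CTR value stands in for both arrays. The spot intensities of the 30 min array departed from the deposited log2 values, which were used there. With those intensities in their place the 30 min changes of the members ranged from -5.89 (PLAU A_73_118758) to 2.22 (MMP9 A_73_119412), and the sign turned for the latter, for TIMP1 A_73_120461 (-3.77), TIMP2 A_73_P461481 (-5.37) and A_73_P101241 (-2.19), TIMP3 A_73_P048511 (1.70) and PLAU A_73_P404531 (1.35). TIMP2 A_73_108874 and TIMP3 A_73_P098836 had no value with those intensities. A probe is called detected where its signal was well above the background. Where only one side was detected, the dim side was set to the lowest detected level of its array and the difference is given as "at least". Between 20.8% and 40.2% of probes were detected per array, with more at 2 h and 4 h than elsewhere, so that a probe of the same level could be detected on the 4 h array and missed on that of 8 h.

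The marker genes of other cell types differed between the slides. On slide 1, 1 or 2 of 20 macrophage probes were detected, with a summed linear level (in units of the 75th percentile) between 1.60 and 3.15, against 10 to 15 probes and 14.4 to 319.8 on slide 2. Neutrophil probes numbered 0 to 2 of 9 on slide 1, with a sum of 0 to 1.96, and 4 to 9 on slide 2, with 41.2 to 143.1. In CTR no probe of CD14, CD68, CSF1R, S100A8 or S100A9 was detected. Of 14 pan-leukocyte probes, 4 were detected on each slide 1 array (sum 36.2 to 57.4) and 4 to 12 on slide 2 (52.9 to 144.7). Of 12 endothelial probes, 0 were detected on slide 1 and 1 or 2 on slide 2 (0.309 to 3.70). Epithelial keratin and adhesion genes had 10 of 14 probes detected on each slide 1 array (sum 432 to 649) and 7 to 13 on slide 2 (220 to 491), and KRT18, used to stain such cultures, was detected only at 2 h and 16 h. The part of these shifts in the results below was not tested. In RNA of a whole culture, fewer cells of a type and less RNA per cell cannot be told apart.

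Probes of a gene did not always read alike, and whether this goes with their place along the transcript was not tested. The probes that carry several of the results are shown as printed on the array, 5′ to 3′. The array was designed on the cattle genome (build HGSC Btau_3.1), and the coordinates are those of that build. Exons and untranslated regions of that build were not used here. Where the genomic span of a 60-base probe is longer than the probe, the probe joins separate genomic blocks. For PLAU, on the plus strand of chromosome 28, these are 2 probes from the 5′ part of the gene, at chr28:29179097-29179774 and chr28:29180146-29180392.
PLAU A_73_P404531: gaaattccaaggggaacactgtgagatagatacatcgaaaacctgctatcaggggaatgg
PLAU A_73_P101236: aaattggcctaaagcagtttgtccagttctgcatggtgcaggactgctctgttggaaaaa
The third PLAU probe, A_73_118758, lies 3′ of both at chr28:29183815-29183874, and the 3 probes cover 4778 bases. TIMP1, on the minus strand of chromosome X, is read by 2 probes at chrX:56251212-56252239 and chrX:56252683-56252924, shown because both had their highest level at 16 h and the next at 4 h.
TIMP1 A_73_120461: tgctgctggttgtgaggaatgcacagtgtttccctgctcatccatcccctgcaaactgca
TIMP1 A_73_P044976: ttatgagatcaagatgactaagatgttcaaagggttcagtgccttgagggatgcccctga
TIMP3, on the plus strand of chromosome 5, is shown by the probe with the largest early difference, at chr5:76710563-76711706.
TIMP3 A_73_P098836: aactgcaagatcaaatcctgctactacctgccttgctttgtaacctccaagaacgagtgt
No spot of a member was saturated on any array.

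PLAU was lower than CTR at every time point after heat stress, except that the brightest probe was within the error of CTR at 2 h under 4 of the alternatives given below and at 4 h with median scaling, and at 30 min and 24 h once the brightness of neighbouring spots was subtracted. The level of its 3′ probe A_73_118758 was 7.04 in CTR, then 6.23 and 6.36 at 30 min and 2 h, 5.97 by 4 h, 5.30 and 5.36 on the 8 h and 12 h arrays, 5.77 after 16 h and 6.25 after 24 h. CTR was the highest of the 8 arrays, the level was lowest at 8 h and 12 h, and at 24 h it lay near that at 30 min. The change was -1.73 ± 0.28 at 8 h, or 3.32-fold lower, and -1.67 ± 0.33 at 12 h, or 3.19-fold lower, and both arrays share the slide of CTR. At 24 h, on the same slide, the change was -0.78 ± 0.36. On slide 2 it was -0.81 ± 0.30 at 30 min and -0.68 ± 0.35 at 2 h, and on the later arrays of that slide -1.07 ± 0.36 (4 h) and -1.27 ± 0.54 (16 h). Each of the 7 changes was larger than its error. Within slide 2, the arrays of 30 min and 2 h were 0.48 ± 0.54 and 0.59 ± 0.57 above that of 16 h, and that of 4 h 0.20 ± 0.58. Scaling the arrays to their median put the 2 h and 4 h changes at 0.03 and 0.02, and normexp background correction put them at 0.03 and -0.37. After quantile normalization the 2 h change was -0.13, the 4 h change -0.84 and the 24 h change -0.46. From 8 h to 16 h the changes stayed at or below -1.16 under all 3.

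The 2 probes toward the 5′ end of PLAU were also highest in CTR, and their differences were larger than those of the 3′ probe at 4 h but not at 24 h. Probe A_73_P101236 had a level of 1.32 in CTR and was also detected at 2 h (0.47) and 4 h (-0.88) and, on the slide of CTR, after 12 h (-0.62) and 24 h (1.08). It was 4.57-fold lower at 4 h and 3.82-fold lower at 12 h, and at 24 h its change of -0.23 ± 0.36 was within the error. The arrays of 30 min, 8 h and 16 h did not detect it, which puts it at least 2.11-fold, 3.21-fold and 2.62-fold lower than CTR. Probe A_73_P404531 had a level of 0.59 in CTR and was otherwise detected at 2 h and 4 h alone, at -0.68 and -1.68, the latter just above the limit of that array. It was 2.42-fold lower at 2 h and 4.82-fold lower at 4 h, and by 12 h at least 3.1-fold lower. Its 24 h value of 0.16 lay just under the detection limit of that array, so there it was at least 1.28-fold lower (-0.35 ± 0.36), a bound within the error. The sizes at 4 h depend on the scaling. Median scaling put A_73_P101236 at -1.10 and A_73_P404531 at -1.18 there, and normexp at -1.43 and -1.23, all under 3-fold. At 2 h median scaling put A_73_P101236 at -0.14, within the error, and A_73_P404531 at -0.57.

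**Figure D1:**
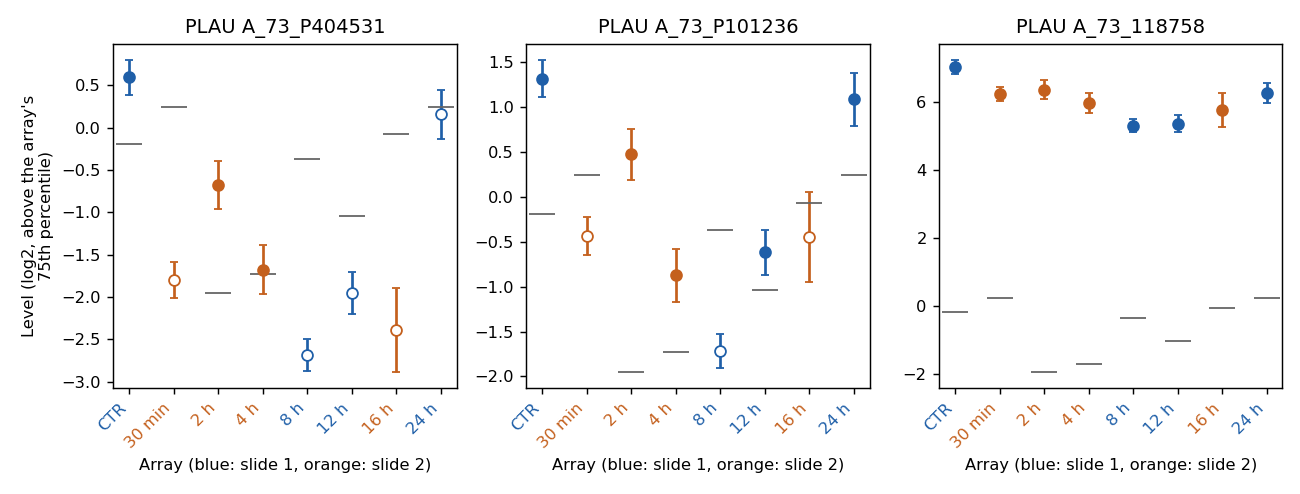
Level of the 3 PLAU probes, 5′ to 3′ from left to right, on the 8 arrays (log2 above the array's 75th percentile, a separate scale in each panel). Filled points were well above background and open points were not, bars are the SD between spots of 1 probe on that array (at 30 min that of CTR), and dashes mark the lowest detected level of each array. CTR is the highest point in all 3 panels, and the 3′ probe is lowest at 8 h and 12 h.

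Spots around the PLAU probes were brighter than usual on the CTR array. The median deviation of bright neighbouring probes from their own median over the other 7 arrays, which holds any shift of the whole array too, was 0.29, 0.20 and 0.41 on the log2 scale around A_73_118758, A_73_P101236 and A_73_P404531 in CTR. With this local deviation subtracted from each array, an alternative added after the data were seen, the change of A_73_118758 was -1.48 at 8 h and -1.34 at 12 h, with -0.91 and -1.19 on the 4 h and 16 h arrays. The first 2 time points and the last then gave -0.29, -0.20 and -0.35, each within the error. A lower level of PLAU from 4 h to 16 h was thus measured with and without this step, and the smaller differences at 30 min, 2 h and 24 h were within the error with it.

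The inhibitors behaved differently from PLAU and from each other. TIMP1, a secreted inhibitor that is also a growth factor-like protein for some cells, was highest at 4 h and 16 h by both of its probes. The level of A_73_120461 was 4.92 in CTR, 5.10 and 4.94 at the first 2 time points, 5.96 by 4 h, 4.97 and 5.11 on the 8 h and 12 h arrays, 6.46 after 16 h and 5.37 after 24 h. It was 2.06-fold higher than CTR at 4 h (change 1.04 ± 0.36) and 2.91-fold higher at 16 h (1.54 ± 0.54), and at 30 min and 2 h, and again at 8 h and 12 h, its changes lay between 0.02 and 0.19, within the error. The level of A_73_P044976 was 3.28 in CTR, 2.59 and 2.78 at the first 2 time points, 3.67 by 4 h, 2.81 and 2.96 on the 8 h and 12 h arrays, 4.14 after 16 h and 3.30 after 24 h. It was 1.81-fold higher at 16 h (0.86 ± 0.54) and 1.30-fold higher at 4 h (0.38 ± 0.36), but lower than CTR at 30 min (-0.70 ± 0.30), 2 h (-0.50 ± 0.35) and 8 h (-0.48 ± 0.28). Both probes thus put 4 h and 16 h above CTR, and they differ in sign at the other time points but 24 h. For A_73_P044976 at 4 h, quantile normalization gave 0.25 and the 75th percentile over bright probes 0.29, within the error. Median scaling gave 1.47 there and normexp 0.94. At 2 h these 2 alternatives gave 0.20 and 0.11, so that the sign turned. With the local deviation subtracted the changes of A_73_P044976 were -0.18 at 2 h and -0.17 at 8 h, within the error.

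Both high TIMP1 arrays lay on slide 2, as did the 30 min and 2 h arrays, where TIMP1 was not high with the 75th percentile as the scale. At 2 h A_73_120461 was 0.73 with median scaling and 0.71 with normexp, beyond the error. It was within the error there with the 75th percentile over bright probes (0.14) and quantile normalization (0.02). At 12 h all of these put it between 0.40 and 0.65, beyond the error. Against 16 h, A_73_120461 was 2.56-fold lower at 30 min and 2.87-fold lower at 2 h, while 4 h differed by -0.50 ± 0.58. For A_73_P044976 the same comparisons gave 2.90-fold and 2.56-fold lower values and -0.47 ± 0.58. With the local deviation subtracted, the change of A_73_120461 from CTR was 0.66 at 4 h and 0.99 at 16 h, and under the other scalings and normexp it was between 0.95 and 2.14 at 4 h and between 1.32 and 1.49 at 16 h. Fibroblast marker probes were detected in the largest number on the same arrays, 16 of 47 at 4 h and 26 of 47 at 16 h against 5 to 8 of 47 on the other 6. Their summed level was 148 at 4 h and 334 at 16 h, against 214 to 358 elsewhere, so the sum was lowest at 4 h. COL1A2 was detected at 4 h and 16 h only, LUM, FAP, PDGFRA and THY1 at 16 h only, and PDGFRB on no array. The part of such cells in the TIMP1 values was not tested.

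TIMP2, the inhibitor that also helps MMP14 activate MMP2, stayed close to its CTR level with the 75th percentile as the scale. Its 3 probes were detected on all 8 arrays. The level of A_73_108874 lay between 6.86 (4 h) and 7.35 (24 h), against 6.88 in CTR, a range of 0.49. The level of A_73_P461481 lay between 6.51 and 7.16, with 6.52 in CTR and the highest value at 16 h, and that of A_73_P101241 between 3.01 and 3.84, with 3.33 in CTR. The 21 changes lay between -0.32 and 0.64. Over all 7256 probes detected on all 8 arrays, the change ranged over 1.12 in the median from the lowest to the highest time point, against 0.49, 0.65 and 0.82 for the TIMP2 probes. With median scaling A_73_108874 was 0.98 at 2 h and 1.07 at 4 h, where that scaling moved all probes up by 0.70 and 1.09. Quantile normalization, which moved the median of all probes by -0.02 at 2 h, put A_73_108874 at 0.89 there, at 0.60 by 12 h and at 0.70 after 24 h, beyond the error at each. How close TIMP2 stayed to CTR thus depends on the scaling.

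TIMP3, the inhibitor that binds to the matrix itself, was lowest at 30 min by the deposited values of that array, and at 24 h 2 of its 3 probes were within the error of CTR. The level of A_73_P098836 was 2.96 in CTR, 1.12 and 1.96 at the first 2 time points, 3.07 by 4 h, 2.14 and 2.00 on the 8 h and 12 h arrays, 3.20 after 16 h and 2.92 after 24 h. It was 3.58-fold lower at 30 min (-1.84 ± 0.30) and 2.00-fold lower at 2 h, then 1.76-fold and 1.94-fold lower on the 8 h and 12 h arrays, and within the error of CTR on the other 3. With the local deviation subtracted the 30 min change was -1.54, or 2.90-fold lower, and at 2 h median scaling gave -0.30, within the error, and normexp -0.36. The 30 min spot intensities gave no value for this probe, so its 30 min change rests on the deposited values alone. Within slide 2, it was 4.20-fold lower at 30 min and 2.37-fold lower at 2 h than at 16 h, and 4 h differed by -0.13 ± 0.58. The level of A_73_P048511 was 3.30 in CTR, 2.10 and 2.44 at the first 2 time points, 2.95 on both the 4 h and 8 h arrays, 2.94 by 12 h, 2.20 after 16 h and 3.25 after 24 h. Its changes at 30 min (-1.20 ± 0.30) and 2 h (-0.86 ± 0.35) had the same sign as those of A_73_P098836, but at 16 h it was 2.15-fold lower where the other was 0.24 ± 0.54 higher. At 2 h median scaling put A_73_P048511 at -0.16 and normexp at -0.18, within the error, and quantile normalization at -0.88. Bright probes around A_73_P048511 read 0.70 low at 16 h, and with this deviation subtracted its change there was -0.23. The dimmest probe, A_73_P101246, was detected in CTR (0.89) and from 2 h on but not at 30 min, where it was at least 1.57-fold lower. It was highest at 4 h (0.62 ± 0.36) and 16 h (0.59 ± 0.54), the time points at which TIMP1 was highest, and at 24 h it was 0.45 ± 0.36 above CTR. With the local deviation subtracted these 3 changes were -0.03, 0.01 and 0.02.

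**Figure D2:**
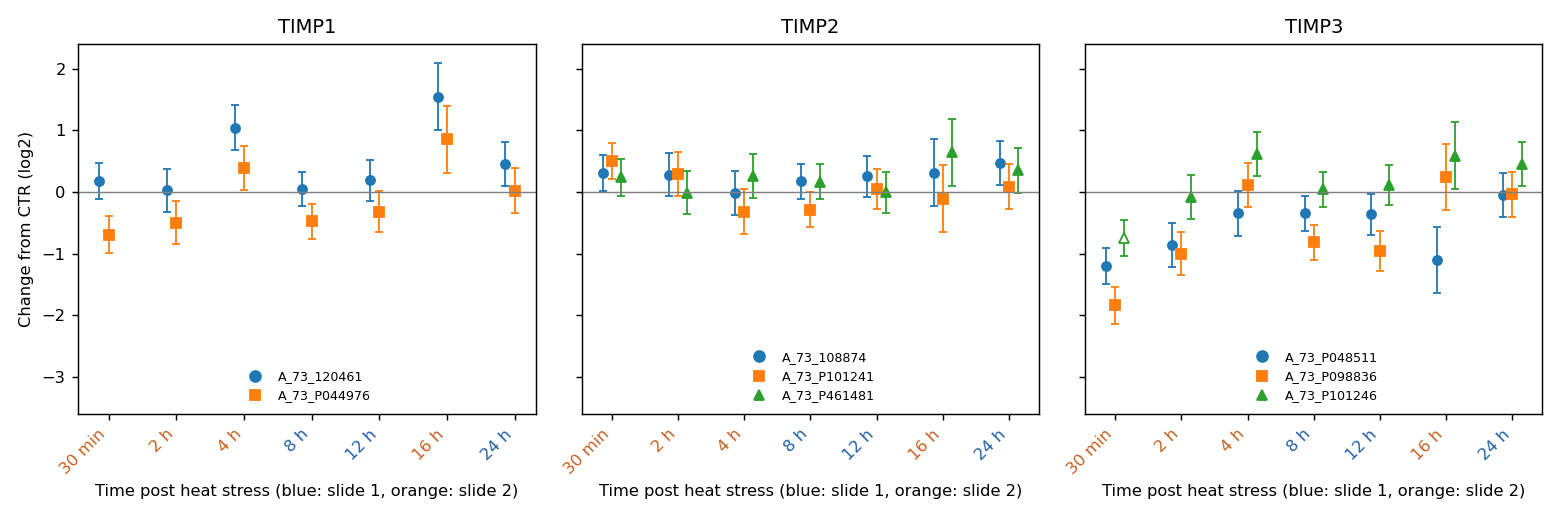
Change from CTR (log2) of each TIMP probe at the 7 time points, with bars of 1 SD from spots within an array and an open symbol where the probe was not detected on one side. TIMP1 lies above 0 with both probes at 4 h and 16 h, the TIMP2 points lie between -0.32 and 0.64, and the TIMP3 points are lowest at 30 min.

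Of the 5 MMPs, only MMP9 had a probe detected on all 8 arrays. MMP9, the gelatinase that neutrophils and macrophages also release, was lower than or near CTR after heat stress. The level of its 3′ probe A_73_119412 (chr13:75526906-75526965) was 3.32 in CTR, 2.68 and 2.24 at the first 2 time points, 3.06 and 3.22 on the 4 h and 8 h arrays, 2.24 by 12 h, 3.11 after 16 h and 1.75 after 24 h. It was 2.96-fold lower at 24 h (-1.56 ± 0.36), 2.11-fold lower at 2 h and at 12 h (-1.08 ± 0.35 and -1.08 ± 0.33) and 1.56-fold lower at 30 min, and within the error on the other 3 arrays. At 2 h median scaling and normexp both put the change at -0.37, near the error. Apart from 30 min with the spot intensities, the sign turned at 4 h with median scaling (0.84) and normexp (0.43), at 8 h with median scaling (0.08) and at 16 h with the local deviation subtracted (0.25). A second probe, A_73_P101206, was detected in CTR (0.50), at 2 h (-0.84) and 4 h (0.25), on the 8 h (0.02) and 12 h (-0.47) arrays, and after 16 h (0.53). It was 2.53-fold lower at 2 h and 1.95-fold lower at 12 h, with 0.03 ± 0.54 at 16 h. On the 30 min and 24 h arrays, which did not detect it, it was at least 1.19-fold lower, a bound within the error. With median scaling its 4 h change was 0.85. The third probe, A_73_P098776, was detected at 4 h only, at the lower detection limit of that array, which gives no fold. Against 16 h on the same slide, A_73_119412 differed by -0.42 ± 0.54 at 30 min, by -0.87 ± 0.57 at 2 h and by -0.04 ± 0.58 after 4 h. The arrays of 12 h and 24 h share the slide of CTR.

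The membrane-bound MMP14, a collagenase that also cuts the MMP2 precursor, had 1 probe (A_73_P038121, chr10:22262121-22262560, minus strand). It was not detected in CTR (-0.26) or on the 30 min (0.22), 8 h (-1.96) and 24 h (0.14) arrays. It was detected at 2 h (0.14) and 4 h (0.54), and again on the 12 h (-0.57) and 16 h (0.99) arrays. Relative to CTR the 2 h value was at least 1.26-fold higher, that of 4 h at least 1.67-fold and that of 16 h at least 2.28-fold. The highest levels were again those of 4 h and 16 h. Within slide 2, the 2 h value was 1.81-fold lower than that at 16 h and the 4 h value differed by -0.45 ± 0.58.

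MMP1, interstitial collagenase, was at the edge of detection. Its probe A_73_P110031 was detected at 2 h (-0.53) and 4 h (0.28), and was at least 1.39-fold higher than CTR at 4 h. Probe A_73_P101186 was detected at 4 h only (-0.81), below the detection limit of CTR, and gives no fold. Probe A_73_100846 was detected on no array, although it shares 38 bases with A_73_P110031 (both on chromosome 15, at 4792583-4792641 and 4792604-4792663). The shared stretch differs by 1 base, C46G, counted from 1 at the 5′ end of A_73_100846. The 27 bases around it are shown for both, with that base in capitals.
A_73_100846: ccatcctgatacCcaagggacaacttt
A_73_P110031: ccatcctgatacGcaagggacaacttt
These bases are those of the cattle design, and the buffalo sequence at this position was not used here.

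MMP2, gelatinase A, and MMP3, stromelysin, were detected on no array, with 4 probes each. The 30 min spot of MMP2 A_73_P399226 was flagged well above background, but its level there from the deposited values (-1.27) lay below the limit. The MMP2 probes spread over 26122 bases of chromosome 18 and the MMP3 probes over 5005 bases of chromosome 15, so that 5′ and 3′ parts of both were probed. In the buffalo gene table MMP1 and MMP3 lie on the same chromosome with 0 genes between them. The detection limit of an array lay between -1.95 (2 h) and 0.24 (24 h) on the scale of levels, so no more than an upper bound near these levels can be given, and a low expression below it was not detectable.

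**Figure D3:**
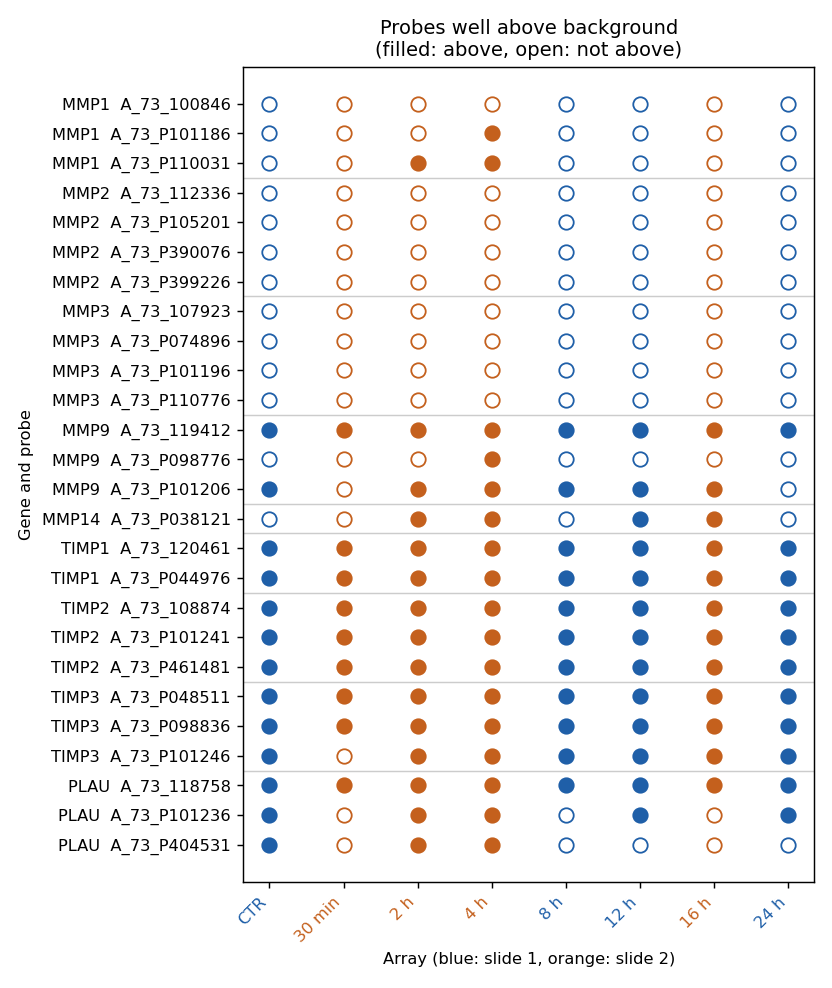
Detection of the 26 probes on the 8 arrays, with a filled circle where the probe was well above background and an open circle where it was not. All TIMP1 and TIMP2 probes are filled throughout, all MMP2 and MMP3 probes are open throughout, and the single MMP14 probe is filled on 4 arrays, 3 of them on slide 2.

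In all, 9 of the 26 probes were detected on all 8 arrays, 8 on some and 9 on none. Among the 9, 3 were lower than CTR at all 7 time points (PLAU A_73_118758, MMP9 A_73_119412 and TIMP3 A_73_P048511), where 21.4% of the 7256 probes detected throughout were. One was higher at all 7 (TIMP1 A_73_120461), against 8.35% of those probes. Since all changes share CTR, such counts hold for many probes, and the members' change ranged over 1.15 in the median against 1.12 for all probes.

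By the size the study used, 3-fold, few members were called. At 30 min 1 of 13 tested probes was 3-fold lower (TIMP3 A_73_P098836), against 4.61% of all probes tested, and 0 were higher, against 6.72%. At 2 h 0 of 15 were lower, against 7.76%, and 0 higher, against 4.6%. At 4 h 2 of 17 were lower, both PLAU, against 5.19%, and 0 higher, against 2.31%. At 8 h 2 of 13 were lower, both PLAU, against 0.167%, and 0 higher, against 0.468%. At 12 h 3 of 14 were lower, all 3 PLAU probes, against 0.457%, and 0 higher, against 0.103%. At 16 h 0 of 14 were lower, against 4.53%, and 0 higher, against 4.97%. At 24 h 0 of 13 were lower, against 0.615%, and 0 higher, against 0.0802%. The PLAU calls at 8 h and 12 h thus stand among 20 and 62 probes of the whole array, and both arrays lie on the slide of CTR. All 5 were under 3-fold with the local deviation subtracted, and the sizes depend on the alternative. For A_73_118758 the alternatives put it between 2.80-fold and 3.34-fold lower at 8 h and between 2.23-fold and 3.19-fold at 12 h. For A_73_P101236 they gave at least 2.32-fold to at least 3.24-fold at 8 h and 2.11-fold to 3.96-fold at 12 h, and for A_73_P404531 at least 2.33-fold to at least 3.26-fold at 12 h.

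Of the probes measured on both arrays, the median member changed by -0.64 at 30 min and -0.68 at 2 h, against -0.22 and -0.41 for all probes. The later medians of the members were -0.25, -0.29, -0.34, 0.24 and 0.02 in order of time, and those of all probes -0.18, -0.13, -0.29, -0.01 and -0.13. The members as a group therefore lay near the bulk of the array from 4 h on, while PLAU probes lay below its 5th percentile at 4 h, 8 h and 12 h. At 4 h these were the 2 probes toward the 5′ end alone, and A_73_118758 lay within the range of all probes.

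**Figure D4:**
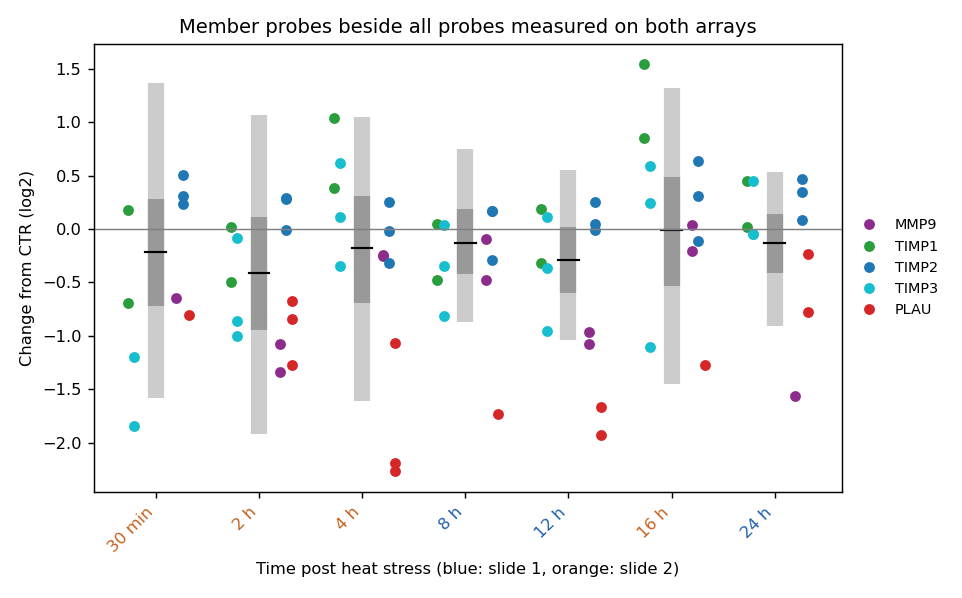
Change from CTR (log2) of every member probe measured on both arrays (coloured points) beside all probes measured on both arrays (dark bar from the 25th to the 75th percentile, light bar from the 5th to the 95th, line at the median). PLAU points lie below the light bar at 4 h, 8 h and 12 h, as do 1 TIMP3 point at 30 min and 1 MMP9 point each at 12 h and 24 h, and 1 TIMP1 point lies above it at 16 h.

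A scaling of a whole array moves all its probes alike, so the balance of proteases and inhibitors was also read within each array, as the difference of their changes from CTR. The brightest TIMP2 probe (A_73_108874) and the brighter TIMP1 probe (A_73_120461) served as partners. PLAU (A_73_118758) minus TIMP2 was -1.90 ± 0.40 at 8 h and -1.92 ± 0.46 at 12 h, the lowest of the 7 values. Before, it was -1.11 ± 0.42, -0.96 ± 0.50 and -1.05 ± 0.51 in order of time, and after, -1.58 ± 0.77 and -1.25 ± 0.51. All 7 values were below 0 by more than the error, but with the local deviation subtracted those at 2 h (-0.20) and 4 h (-0.40) were within it. PLAU minus TIMP1 (A_73_120461) ranged from -0.70 ± 0.50 at 2 h to -2.81 ± 0.77 at 16 h, also below 0 at all 7, and was within the error at 30 min (-0.41) and 2 h (-0.30) with the local deviation subtracted and at 2 h (-0.14) with quantile normalization. MMP9 (A_73_119412) minus TIMP1 ranged from -0.14 ± 0.40 at 8 h to -2.02 ± 0.51 at 24 h, and was beyond its error at all but 8 h, and at all but 8 h and 16 h (-0.74) with the local deviation subtracted. With the 30 min spot intensities its sign turned at 30 min, from -0.82 to 6.00, while PLAU minus TIMP1 was -2.12 there. The differences from TIMP2 had no 30 min value with those intensities. TIMP1 minus TIMP2 was 1.06 ± 0.51 at 4 h and 1.23 ± 0.77 at 16 h. Elsewhere it was between -0.25 and -0.02, within the error, though quantile normalization gave -0.88 at 2 h. The other TIMP1 probe, A_73_P044976, lay 0.43 (24 h) to 0.87 (30 min) below A_73_120461, so each TIMP1 difference depends on the probe. At 30 min its change of -0.70 lay near those of MMP9 (-0.64) and PLAU (-0.81). At 8 h its -0.48 lay below MMP9 (-0.10). Against TIMP2 it was 0.38 to -0.02 at 4 h, 0.86 to 0.31 at 16 h and -0.70 to 0.31 at 30 min. All these differences are ratios of change, and they do not tell which partner moved.

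**Figure D5:**
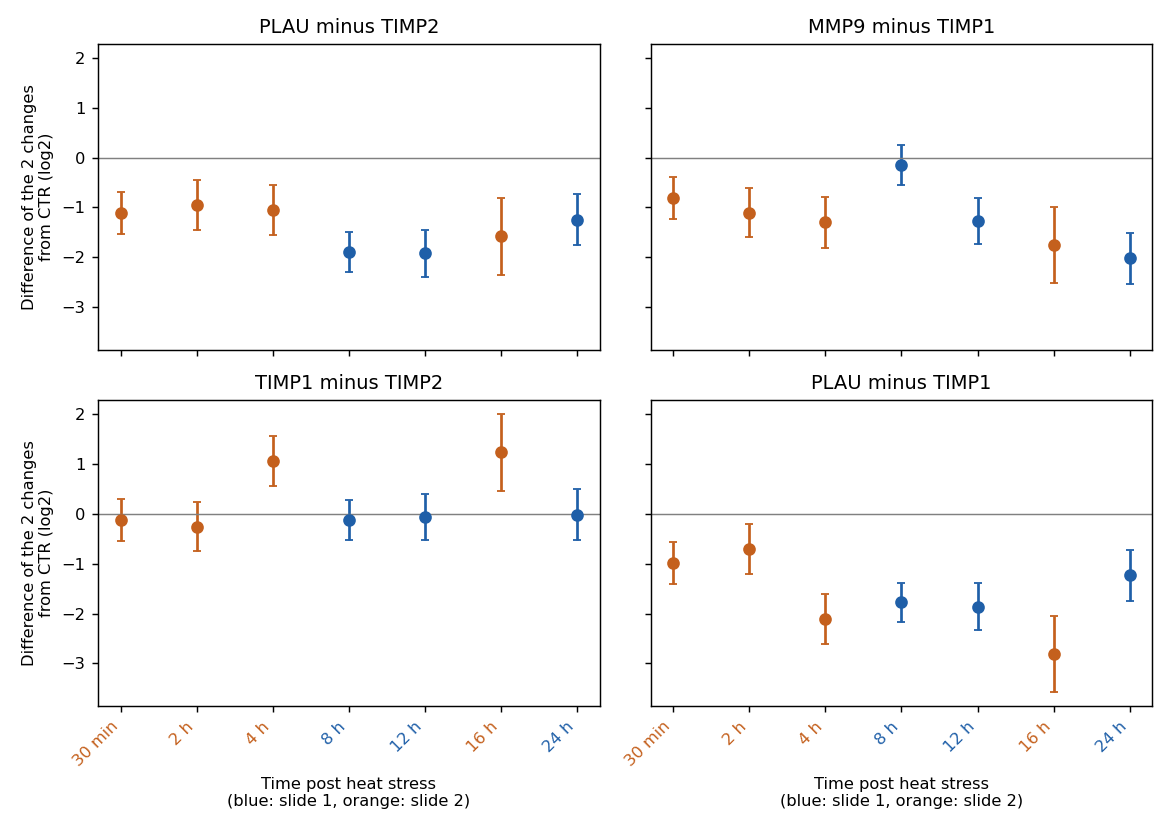
Difference of the changes from CTR (log2) of 2 members read on the same array, with bars of 1 SD from spots within an array and the slide given by colour. TIMP1 is read by probe A_73_120461 alone. PLAU minus TIMP2 and PLAU minus TIMP1 lie below 0 at all 7 time points, and TIMP1 minus TIMP2 lies apart from 0 at 4 h and 16 h.

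The rest of the plasminogen system did not share one direction. Of 17 probes for 8 genes, 7 to 10 were tested per time point, 0 to 2 were 3-fold higher and 0 or 1 was 3-fold lower. Over all probes tested, 0.0802% to 6.72% were higher and 0.167% to 7.76% lower, by time point. PLAUR, the receptor that holds PLAU at the cell surface, was higher at 30 min (1.78 ± 0.30) and 2 h (1.59 ± 0.35) and lower from 4 h on, at -1.25 ± 0.36, -0.87 ± 0.28, -1.21 ± 0.33, -1.67 ± 0.54 and -0.54 ± 0.36. PLAT, the other plasminogen activator, was higher at all 7 time points, from 0.59 ± 0.30 at 30 min to 1.60 ± 0.28 at 8 h. At 8 h, on the slide of CTR, PLAU and PLAT thus differed from CTR in opposite directions. PLG, the plasminogen gene itself, was detected on no array.

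Partners that activate, induce or clear MMPs were lower in the median than all probes at every time point, by least at 24 h, and on the slide of CTR no probe passed 3-fold. Of 13 probes for 5 genes on the array, 4 of 11 were 3-fold lower at 30 min and 4 of 12 at 2 h, against 4.61% and 7.76% of all probes tested. Of 12 tested at 4 h, 3 were lower and 1 higher, at 16 h 1 was lower and 1 higher, and on the 8 h, 12 h and 24 h arrays 0 were called. Over all probes tested, 5.19% were lower and 2.31% higher at 4 h, and 4.53% and 4.97% at 16 h. The median change was -1.47 and -1.41 at the first 2 time points, -0.74 by 4 h, -0.90 and -0.60 on the 8 h and 12 h arrays, -0.69 after 16 h and -0.15 after 24 h, against the medians of all probes given above. Their summed linear level was 321.5 in CTR, between 118 and 275 from 30 min to 16 h, and 341.8 at 24 h. THBS1, a matrix protein that regulates MMP activity, was -2.63 ± 0.30 at 30 min and -0.17 ± 0.36 at 24 h. BSG, the cell surface inducer of MMPs, was -1.72 ± 0.30 at 30 min, -1.87 ± 0.35 at 2 h and -0.52 ± 0.36 at 24 h.

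The other MMPs and inhibitors were mostly undetected. Of 22 probes for 13 further MMP genes, 1 to 6 were detected per array and 0 on all 8. At 30 min 1 of 4 tested was 3-fold higher, against 6.72% of all probes. At 2 h 1 of 8 was higher and 2 lower, against 4.6% and 7.76%. At 4 h 1 of 4 was lower, against 5.19%, and at 8 h 1 of 3 higher, against 0.468%. MMP25, a membrane-anchored MMP of leukocytes, was 0.86 ± 0.28 at 8 h and 1.00 ± 0.33 at 12 h, but -2.14 ± 0.36 at 4 h and at least 5.51-fold lower at 2 h. MMP11, stromelysin-3, was at least 4.47-fold lower at 2 h and -1.29 ± 0.36 at 4 h. TIMP4, RECK and A2M together had 0 to 2 of 9 probes detected per array and 0 called.

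Proteases of other classes and the transcription factors that are known to bind MMP and PLAU promoters gave a different picture. Of 37 ADAM and ADAMTS probes, 8 to 16 were tested and 0 to 2 were called higher and 0 or 1 lower, where all probes tested had the shares given for the plasminogen system. ADAM8, a leukocyte metalloprotease, was 2.50 ± 0.30 at 30 min and 1.71 ± 0.35 at 2 h, and ADAM10, a sheddase, was lower at all 7 time points, most at 16 h (-2.47 ± 0.54). Of the cathepsin and cystatin probes, 10 of 25 were 3-fold higher at 30 min and 11 of 25 at 2 h, against 6.72% and 4.6% of all probes tested. Later on slide 2 it was 2 of 22 (4 h) and 7 of 25 (16 h), against 2.31% and 4.97% of all probes tested. On slide 1 it was 0 of 19 on each array, and 0 were lower throughout. CTSB and CTSD, lysosomal proteases, were 3.52 ± 0.30 and 3.22 ± 0.30 at 30 min and 0.14 ± 0.36 and -0.23 ± 0.36 at 24 h. These arrays are those of slide 2 on which macrophage probes were also detected. CST6, a cystatin, was higher at all 7, from 0.81 ± 0.33 at 12 h to 2.38 ± 0.54 at 16 h. Of 18 AP-1 and ETS probes, 3 of 12 were 3-fold higher at 30 min and 3 of 16 at 2 h, against the same 6.72% and 4.6%. On each later array 0 or 1 were, with 0 lower throughout. FOSB was 4.23 ± 0.30 at 30 min and 4.00 ± 0.35 at 2 h, JUNB was 2.68 ± 0.30 and 3.06 ± 0.35, and JUN was 2.51 ± 0.30 and 2.42 ± 0.35. At the same time points no member was 3-fold higher, and a link between these factors and the members was not tested.

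Likeness over the 8 arrays was described by Pearson's r of the level, among probes of other named genes detected throughout. The points share 2 slides and the scaling of each array, and over 8 arrays high values are common. For PLAU A_73_118758 the closest were PRPS1 (0.96), TIPARP (0.92) and DERA (0.90), and 2 of 6314 candidates lay above 0.9. For TIMP1 A_73_120461 they were CLU (0.98), B4GALT1 (0.98) and PYGB (0.98), with 133 of 6313 above 0.9. For TIMP3 A_73_P048511 they were UCHL3 (0.99), WDR83OS (0.98) and EIF4E2 (0.98), with 115 above 0.9. For MMP9 A_73_119412 they were EEF1B2 (0.97), C3H1orf87 (0.97) and ATP5C1 (0.96), with 19 above 0.9, and for TIMP2 A_73_108874 they included ARPC5 (0.87) and ASPSCR1 (0.82), with 0 above 0.9.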

How the data were processed

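Total RNA of the 8 conditions carried Cy3 on bovine 4x44K arrays, 1 array each. The authors scanned them and deposited spot intensities made with Feature Extraction 9.5.3.1, with a flag for signals well above background, and a table of log2 values normalized to the 75th percentile and centred per probe. Genome build and probe positions are per the file headers and columns.

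Intensities of 7 arrays were taken to log2, the 75th percentile was subtracted, and spots of a probe were averaged without outlier-marked ones. The 30 min intensities departed from the deposited log2 values (r = 0.174, against 1 on the other arrays), so the deposited values gave the 30 min change, and detection there used the highest limit of the other 7 arrays. Precision is limited by 1 array per condition. No test was made. Member genes and lists were chosen with earlier results of these data known. Named genes were all members, up to 3 genes per list with the largest change among probes past 3-fold, and the 3 most alike per member, and 2 genes this rule names are not reported here. Lists: other MMPs, other inhibitors, plasminogen system, activators and partners, ADAM and ADAMTS, cathepsins and cystatins, AP-1 and ETS, and markers of 6 cell types. Alternatives were median scaling, the 75th percentile over bright probes, quantile, normexp (limma 3.58.1, R 4.3.3, offset 50), the deposited log2 values, the 30 min intensities, outlier spots kept, only probes detected on both arrays, no filter, 2-fold and, added after the data were seen, subtraction of the median deviation of bright neighbouring probes. Calculations used Python 3.11.15, numpy 2.4.6 and pandas 2.3.3, and were tested on simulated data. All 9 symbols matched a buffalo RefSeq table (assembly NDDB_SH_1), used for names and order only.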

Additional observations from a re-analysis of the deposited data

How the results depend on the processing

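No paired analysis was possible because each condition has 1 array and the conditions share only the replicate number 1. Of the 8 member calls past 3-fold, all 8 kept their direction under every alternative that gave them a value. With median scaling 2 kept their size, with the 75th percentile over bright probes 6, with quantile normalization 6, with normexp 2, and with the local deviation subtracted (chosen after the data were seen) 2. The deposited log2 values and outlier-marked spots kept changed 0 of 14 counts. Median scaling gave 3 higher and 0 lower members at 4 h, and later 0 (8 h), 1 (12 h) and 1 (24 h) lower. The bright-probe percentile gave 1 lower at 12 h, and quantile normalization 1 lower at 8 h. Normexp gave 2 lower at 30 min, 1 higher and 0 lower at 4 h, 1 lower at 8 h and 0 lower at 12 h. The 30 min scanner intensities gave 2 higher and 5 lower at 30 min. The local deviation subtracted left 0 lower at 30 min, 8 h and 12 h. Probes detected on both arrays alone gave 1 lower at 8 h. With no filter on dim probes, 4 were lower at 30 min and 9 at 2 h, then 4 (8 h) and 2 (16 h), and 1 was higher (4 h). At 2-fold, 3 were lower at 30 min and 4 at 2 h, then 3 (16 h) and 1 (24 h), and 1 (4 h) and 2 (16 h) were higher. Median scaling moved the median of all probes by 0.70 (2 h), 1.09 (4 h) and -0.43 (24 h), and normexp by 0.61 (2 h), 0.60 (4 h) and 0.42 (12 h). Changes within slide 2 moved by more than their error for 26 of 44 values with median scaling, 0 of 44 with quantile normalization and 4 of 44 with the local deviation subtracted. The cause of these moves was not tested. Signal over background limits MMP1, MMP2, MMP3 and MMP14.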
